A study of Mus musculus with 4 samples.

Results

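The AMPA receptor subunit genes Gria1, Gria2, Gria3 and Gria4 and the kainate receptor subunit genes Grik1, Grik2, Grik3, Grik4 and Grik5 were followed in RNA-seq of the brain of a mouse model of mucopolysaccharidosis type II. They were chosen by name, and all 9 were present by Entrez identifier among the 12700 genes of the count table. The libraries were labelled CxH (cerebral cortex, genotype Ids-/-), CxWT (cerebral cortex, wild type), MH (midbrain/diencephalon/hippocampus, Ids-/-) and MWT (midbrain/diencephalon/hippocampus, wild type), all from C57BL/6 mice of 9 months. Each of the 4 was 1 library made from RNA pooled over 7 mice, so there was no replicate. Per the study's methods, the block called M also held the striatum, and the wild-type animals were littermates of the Ids-ko mice. Unless a fit over all libraries is named, every difference below is a difference between 2 libraries. Its ± covers the counting of reads, not the variation between mice or pools.

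AMPA and kainate receptors are glutamate-gated cation channels built of 4 subunits each, and AMPA receptors carry most fast excitatory transmission in the brain. The product of Gria2, once its messenger RNA has been edited at the Q/R site of the pore, makes an AMPA receptor nearly impermeable to calcium, so the proportion of Gria2 among the AMPA subunits is of interest in itself. Among the kainate subunits, Grik1, Grik2 and Grik3 encode low-affinity subunits that can form channels alone, whereas Grik4 and Grik5 encode high-affinity subunits that need one of the former. Ids encodes iduronate 2-sulfatase, the lysosomal enzyme lacking in Hunter syndrome.

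The Q/R codon lies within a pore loop that the families share, and it is shown because the role of Gria2 in the receptor turns on it. The 45 bases of each coding sequence that end 3 bases after this codon are given 5′ to 3′ from the reference transcripts, with the Q/R codon in capitals.
Gria1: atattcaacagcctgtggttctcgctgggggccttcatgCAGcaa
Gria2: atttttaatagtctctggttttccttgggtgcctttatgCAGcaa
Gria3: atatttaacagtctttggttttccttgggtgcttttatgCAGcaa
Gria4: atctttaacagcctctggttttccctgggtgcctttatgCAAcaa
Grik1: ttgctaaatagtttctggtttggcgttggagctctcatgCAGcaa
Grik2: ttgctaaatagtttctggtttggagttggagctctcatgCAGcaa
Grik3: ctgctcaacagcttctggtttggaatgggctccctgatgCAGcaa
Grik4: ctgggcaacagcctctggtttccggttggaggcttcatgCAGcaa
Grik5: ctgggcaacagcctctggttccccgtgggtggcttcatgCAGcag

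On the NCBI37/mm9 build with GENCODE vM1 models, all of these windows are exonic coding sequence, and none is untranslated. They lie at chr11:57056557-57056601 on the plus strand (Gria1, exon 11 of 16), chr3:80510830-80510874 on the minus strand (Gria2, exon 11 of 17), chrX:38963403-38963447 on the plus strand (Gria3, exon 11 of 16) and chr9:4464134-4464178 on the minus strand (Gria4, exon 12 of 17). The kainate windows lie at chr16:87940784-87940828 on the minus strand (Grik1, exon 11 of 15), chr10:48964132-48964176 on the minus strand (Grik2, exon 13 of 17), chr4:125368412-125368456 on the plus strand (Grik3, exon 12 of 16), chr9:42355703-42355747 on the minus strand (Grik4, exon 16 of 21) and chr7:25807513-25807557 on the minus strand (Grik5, exon 15 of 20). The closest pair was Grik1 and Grik2, with 44 of 45 bases identical. Gria2 shared 41 bases with Gria3 and 35 with Gria1, and Grik4 shared 40 with Grik5. Only reads placed in a single gene had been counted, so reads from stretches this alike would be missing where they fit both genes. Annotated microRNA genes also overlap exons of Gria2, Gria3 and Gria4 on the same strand. Counts per gene carry no information on editing or on splice forms.

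Between 16380080 (MWT) and 23475080 (CxH) reads fell on genes, or 56.6% to 61.0% of the aligned reads, and the 9 genes held 0.196% to 0.260% of the reads on genes. Levels are given as RPM (reads scaled to the aligned reads of the library) and as RPKM (RPM per kilobase of the longest protein-coding transcript), and values quoted in fours run from CxH over CxWT and MH to MWT. Only RPKM compares one gene with another. Ids, the disrupted gene, had a level of 135 RPM in CxH and 354 in CxWT but 368 in the library labelled MH and 155 in that labelled MWT, so that the labels of the M block and its Ids reads disagree. The area labels also met a difficulty. Summed over 14 markers of cortical excitatory neurons, the level was 2063 RPM in CxH and 1925 in MH, against 409 in CxWT and 354 in MWT. Summed over the 19 measured of 24 markers of midbrain and diencephalon, it was 38.8 and 48.3 RPM in CxH and MH, against 571 and 501 in CxWT and MWT. In the library labelled MH, En1 had 0 reads, which allows up to 0.0803 RPM, and 4 of the 19 had 3 reads or fewer. CxH had 6 such genes and the other libraries none. The labels are kept as names, and each comparison of H with WT is also one between libraries whose area markers differ. The part of these differences in the results below was not tested. In such tissue pools, fewer cells of a type and less RNA per cell cannot be told apart.

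Gria1 and Gria2 were the most abundant of the 9 genes in every library. Gria1 (chromosome 11, from 56824889 to 57143746) had 14864, 13713, 16802 and 11444 reads, which gave 69.6, 73.5, 81.1 and 71.3 RPKM. The libraries lay close together, with MH the highest. Gria2 (chromosome 3, from 80488858 to 80606713) followed with 15262, 10713, 18402 and 10829 reads, or 57.0, 45.8, 70.8 and 53.8 RPKM. Here MH was again the highest and CxWT the lowest. Gria3, an X-linked subunit gene (from 38754031 to 39031778), received 6204, 3816, 7406 and 3503 reads, or 31.0, 21.9, 38.2 and 23.3 RPKM. Both libraries labelled H were above both labelled WT. Gria4 (chromosome 9, from 4417899 to 4796234) showed the opposite order, with 2020, 3186, 2493 and 3054 reads and 9.64, 17.4, 12.3 and 19.4 RPKM.

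**Figure D1:**
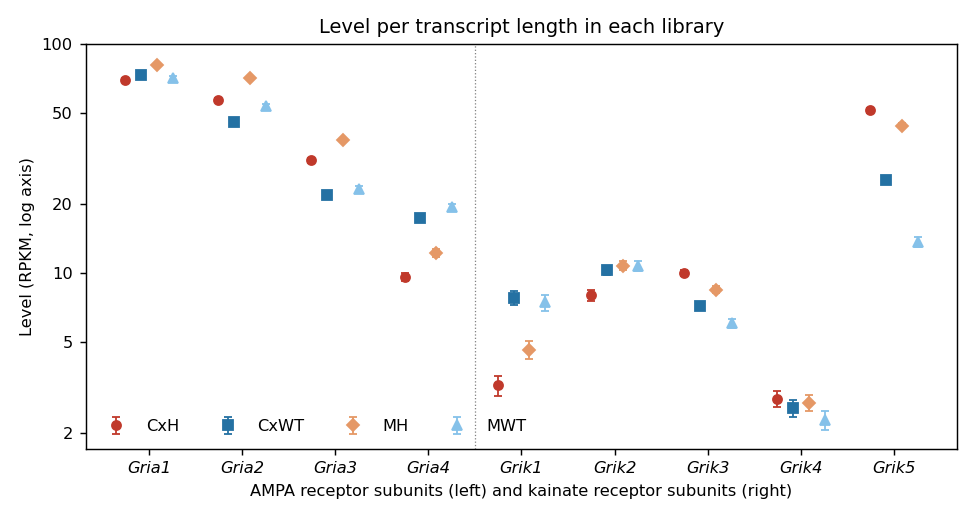
Level of each subunit gene in RPKM (log axis) in the libraries CxH, CxWT, MH and MWT, 1 point per library, with 95% counting intervals. Grik5 runs from 13.7 in MWT to 51.3 in CxH, the widest range of the 9 in these uncorrected levels. Gria4 and Grik1 lie lower in both libraries labelled H than in both labelled WT.

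Grik5 was the kainate subunit with the highest level in every library and, before the correction for GC content given below, the one that varied most. With that correction its largest log2 ratio in any pair was 0.85 (CxH vs. MWT), against -1.11 for Grik1 (CxH vs. CxWT). Grik5 (chromosome 7, from 25794872 to 25857388) drew 7584, 3291, 6294 and 1526 reads, or 51.3, 25.5, 43.9 and 13.7 RPKM. The libraries labelled H were both above those labelled WT, and MWT stood lowest by a wide margin. Grik1 (chromosome 16, from 87896441 to 88289947) ran the other way, with 361, 762, 502 and 625 reads, or 3.24, 7.83, 4.64 and 7.46 RPKM. Grik2, a low-affinity subunit gene on chromosome 10 (from 48819266 to 49508572), gave 1479, 1660, 1933 and 1496 reads, or 8.003, 10.3, 10.8 and 10.8 RPKM. CxH was the lowest, although with the correction for GC content given below its log2 ratio to MWT was -0.0007. Grik3 (chromosome 4, from 125167944 to 125391417) reached 3470, 2169, 2846 and 1570 reads, or 10.04, 7.19, 8.49 and 6.04 RPKM, highest in CxH and lowest in MWT. Grik4 (chromosome 9, from 42326218 to 42752576) was the lowest gene of the group in each library, with 643, 510, 600 and 390 reads and 2.84, 2.58, 2.73 and 2.29 RPKM.

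Ordered by RPKM with the longest coding transcript as the length, Gria1 and Gria2 came first and Grik4 last in all 4 libraries, and the places between them differed. Grik5 took the third place in CxH, CxWT and MH and the fifth in MWT, where Gria3 and Gria4 were above it. Grik1 was next to last in CxH and MH but above Grik3 in CxWT and MWT. Neighbours in these orders differed beyond counting error, with the exception of Grik3 and Gria4 in CxH (10.04 ± 0.171 and 9.64 ± 0.215 RPKM, counting standard error). The choice of transcript length matters more than counting for Gria3 and Grik2, whose annotated exons together span 9859 and 8273 bases against 5192 and 4800 for the longest coding transcript. With all exons as the length, Gria3 in CxH fell from 31.0 to 16.3 RPKM and Grik2 from 8.003 to 4.64. The order then changed. Grik2 fell below Grik1 in CxWT (5.97 and 6.80 RPKM) and in MWT (6.25 and 6.48 RPKM). It also fell below Grik3 in CxWT (5.97 and 7.19 RPKM) and in MH (6.25 and 8.48 RPKM). Gria3 was below Gria4 in CxWT (11.5 and 15.1 RPKM) and below both Gria4 and Grik5 in MWT (12.3, 16.8 and 13.7 RPKM), Grik1 was below Grik3 in CxWT (6.80 and 7.19 RPKM), and Grik1 and Grik4 were nearly level in CxH (2.81 and 2.82 RPKM).

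Within the AMPA family, Gria2 was 34.1% ± 0.234, 28.9% ± 0.244, 35.0% ± 0.218 and 32.1% ± 0.265 of the reads per length (counting standard error). Its proportion was thus higher in each library labelled H than in its partner labelled WT. Gria1 had 41.6%, 46.4%, 40.1% and 42.5% and led in all libraries by this measure. In reads without the length, Gria2 led in CxH (39.8% against 38.8%) and MH (40.8% against 37.3%), and per length with the correction for GC content it led in CxH (38.4% against 37.0%). For Gria3 the proportions were 18.6%, 13.8%, 18.9% and 13.9%, and for Gria4 5.76%, 10.98%, 6.06% and 11.6%. Per length of all exons Gria3 had 11.2%, 8.23%, 11.4% and 8.28%, below Gria4 in CxWT (10.8%) and MWT (11.3%). The proportions of Gria3 and Gria4 therefore set CxH and MH apart from CxWT and MWT. The genotype labels and the area markers both make this split, and the part of either was not tested. The Gria2 proportion was also higher in both libraries labelled H than in both labelled WT. A share within a library does not depend on the library total. Counted in reads without the length, with exact Clopper-Pearson intervals of 95%, Gria4 held 5.27% (5.05 to 5.50) of the Gria reads in CxH and 10.1% (9.81 to 10.5) in CxWT, a difference of -4.87 percentage points (-5.27 to -4.47). In MH and MWT it held 5.53% and 10.6%, and the difference was -5.07 points (-5.48 to -4.65). The share of Gria2 in reads was 5.71 points higher in CxH than in CxWT (4.99 to 6.43) and 3.24 points higher in MH than in MWT (2.52 to 3.96). With the GC correction these Gria2 differences were 11.99 and 8.06 points, so their size depends on the correction. The pairs CxH and MH, and CxWT and MWT, each share the genotype label and have similar sums of area markers. Within them the Gria3 and Gria4 shares of reads differed little, although the area labels differ. The shift was -0.243 points (-0.746 to 0.260) for Gria3 in CxH against MH and -0.456 points (-0.943 to 0.0317) for Gria4 in CxWT against MWT, the largest of the 4 in size, and all 4 intervals held 0. The other subunits did shift between CxWT and MWT, by -3.47 points (-4.24 to -2.71) for Gria2 and 3.94 points (3.15 to 4.73) for Gria1, and by -1.003 points (-1.67 to -0.336) and 1.51 points (0.845 to 2.17) between CxH and MH. With the GC correction, Gria2 and Gria1 were at -1.28 and 1.17 points between CxWT and MWT. Between CxH and MH their corrected shifts turned in sign, to 2.64 and -2.09 points.

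The make-up of the kainate family varied more. Grik5 was 68.0% ± 0.394, 47.8% ± 0.578, 62.2% ± 0.444 and 34.1% ± 0.690 of the Grik reads per length. It led in each library by this measure, by far in CxH and by the least in MWT, whereas in reads Grik3 led in MWT (28.0% against 27.2%). Grik2 made up 10.6%, 19.3%, 15.3% and 26.7%, and Grik1 4.29%, 14.7%, 6.58% and 18.5%. Both low-affinity subunits were thus smallest in CxH and largest in MWT, but with the GC correction Grik1, at 5.75%, 14.8%, 7.48% and 13.7% per length, was largest in CxWT. Grik2 was then at 14.8%, 19.1%, 16.97% and 19.7%. Grik3 stayed between 12.03% and 15.0% and Grik4 between 3.76% and 5.68%. In reads, the Grik5 share was 56.0% in CxH and 39.2% in CxWT, a difference of 16.8 points (15.5 to 18.1), and 51.7% in MH and 27.2% in MWT, a difference of 24.5 points (23.0 to 25.9). The levels per length of the high-affinity subunits Grik4 and Grik5 together were 2.55, 1.11, 1.95 and 0.660 times those of Grik1, Grik2 and Grik3 together. The ratio was below 1 in MWT alone, and the GC correction moved it to 1.89, 1.10, 1.74 and 1.03, with no library below 1. Gria genes together stood at 167, 159, 202 and 168 RPKM, and Grik genes at 75.5, 53.4, 70.6 and 40.3, so the AMPA family exceeded the kainate family 2.22-fold in CxH and 4.16-fold in MWT.

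**Figure D2:**
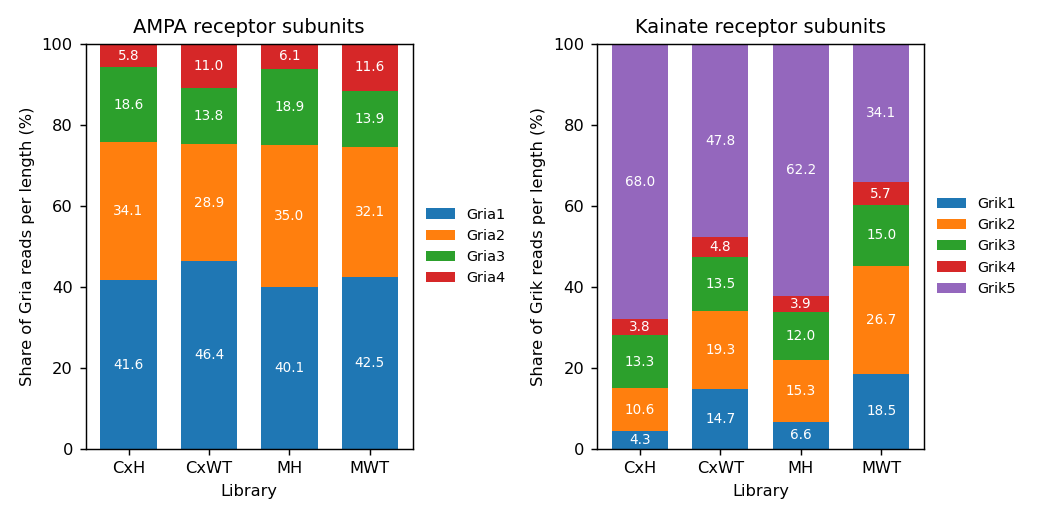
Share of each subunit in the reads per transcript length of its family (%), for AMPA (left) and kainate (right) subunits in the 4 libraries, 1 stacked bar per library. Gria4 takes 10.98% and 11.6% in the libraries labelled WT and 5.76% and 6.06% in those labelled H, and Grik5 ranges from 34.1% in MWT to 68.0% in CxH.

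The comparison of Ids-ko with wt mice in each area asked which genes change when Ids is lacking. Following the rule of the study's methods, calls required a log2 ratio of 0.7 or more in either direction together with p under 0.05 by likelihood ratio on Poisson counts. In CxH vs. CxWT, Grik5 was called up and Gria4 and Grik1 down, that is 1 and 2 of the 9, where 9.46% of all genes were called up and 11.5% down (20.9% in either direction). Grik5 was 2.01-fold higher in CxH (log2 ratio 1.01 ± 0.030), Gria4 1.81-fold lower (-0.85 ± 0.041) and Grik1 2.42-fold lower (-1.27 ± 0.092). The remaining log2 ratios were 0.51 ± 0.030 for Gria3, 0.48 ± 0.039 for Grik3, 0.31 ± 0.018 for Gria2, 0.14 ± 0.086 for Grik4, -0.08 ± 0.017 for Gria1 and -0.36 ± 0.052 for Grik2. Counting error allowed no difference for Grik4 alone. The median over the 9 genes was 0.14, beside -0.09 over all genes.

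In MH vs. MWT, with the direction that of the labels and against the Ids reads, Grik5 and Gria3 were called up and none was called down, while 12.3% of all genes were called up and 12.7% down (25.0% in either direction). Grik5 was 3.20-fold higher in the library labelled MH (log2 ratio 1.68 ± 0.041), a ratio above those of 97.9% of all genes. Gria3 was 1.64-fold higher (0.71 ± 0.030), just past the threshold. Grik1 at -0.68 ± 0.086 and Gria4 at -0.66 ± 0.039 fell just short of it. Grik3 stood at 0.49 ± 0.045, Gria2 at 0.40 ± 0.017, Grik4 at 0.25 ± 0.094, Gria1 at 0.19 ± 0.017 and Grik2 at 0.0015 ± 0.050, the last within counting error of 0. With the reads on genes in place of aligned reads as library totals, Gria3 dropped out of the calls at 0.65 and Gria4 (-0.72) and Grik1 (-0.75) entered them. The median of the 9 was 0.25, beside -0.07 over all genes. Side by side in Cx and M, the log2 ratios were 1.01 and 1.68 for Grik5, 0.51 and 0.71 for Gria3, -0.85 and -0.66 for Gria4 and -1.27 and -0.68 for Grik1. A difference between the areas in these ratios was not tested.

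The genotype and area labels of the 4 libraries were also fitted together in 1 additive model over all genes, chosen after seeing the data, with edgeR's quasi-likelihood test and Benjamini-Hochberg adjustment. It has 1 residual degree of freedom and takes the disagreement between the areas as its error. For H over WT, Grik5 (log2 ratio 1.34, adjusted p = 0.00431) and Gria3 (0.61, adjusted p = 0.0391) were called up and Grik1 (-0.98, adjusted p = 0.0162) and Gria4 (-0.76, adjusted p = 0.0187) down at an adjusted p under 0.05, each with the same sign in both areas. Over all genes 8.76% were called up and 9.90% down. Grik3 (0.49, adjusted p = 0.0755), Gria2 (0.36, adjusted p = 0.156), Grik4 (0.20, adjusted p = 0.475), Grik2 (-0.18, adjusted p = 0.517) and Gria1 (0.05, adjusted p = 0.848) did not pass. With the GC correction 5 of the 9 passed, where 18.3% of all genes did, namely Gria3 (0.86), Gria2 (0.79), Grik5 (0.73), Gria4 (-0.56) and Grik1 (-0.77). For Cx over M no member and no other gene passed in edgeR's test, while Grik5 (0.56) alone of the 9 and 615 of all genes had an unadjusted p under 0.05. The H over WT term follows labels that the Ids reads contradict in M, and it cannot be told apart from the split in area markers.

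**Figure D3:**
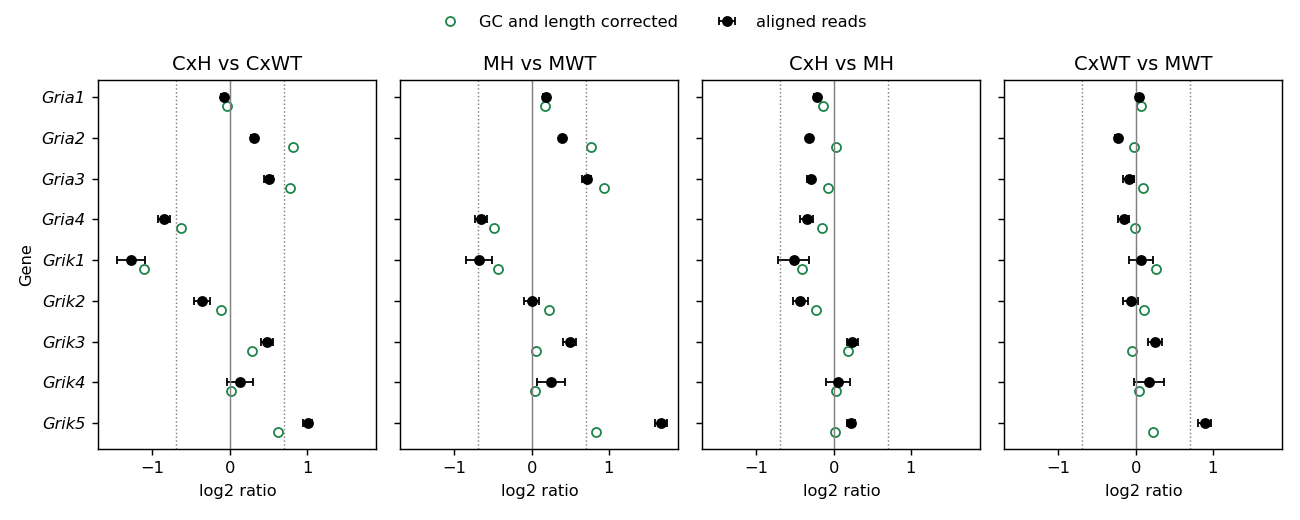
Log2 ratio of each subunit gene for H over WT in Cx and in M and for Cx over M in H and in WT. Filled points are ratios scaled by aligned reads with 95% counting intervals, open points are ratios corrected for GC content and length, and dotted lines mark 0.7 in either direction. Grik5 at 1.68 in MH vs. MWT is the largest ratio and moves to 0.83 with the correction.

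GC content moved with these ratios. Over 10724 genes with a matched protein-coding transcript and 100 reads or more in all libraries, GC content of the longest coding transcript had a Spearman correlation with the log2 ratio of 0.460 in CxH vs. CxWT and 0.486 in MH vs. MWT, a description over genes that share these libraries, and the part of GC content in the results was not tested. Grik5 has 62.3% GC, above 98.1% of the genes, and Gria2 38.1%, above 1.28%. Gria3 has 43.0% GC, Grik2 43.8%, Gria4 44.4%, Grik1 46.4%, Gria1 48.5%, Grik4 52.2% and Grik3 54.2%. After a correction for GC content and length, Grik5 was at 0.62 in Cx, no longer past the threshold, and at 0.83 in M, still past it. Gria2 was then called up in both areas, at 0.82 and 0.77, and Gria3 likewise, at 0.78 and 0.94. Grik1 remained called down in Cx at -1.11, with -0.43 in M, and Gria4 was at -0.63 and -0.48. Grik3 moved to 0.29 in Cx and 0.05 in M, Grik4 to 0.02 and 0.04, Grik2 to -0.11 and 0.23, and Gria1 to -0.04 and 0.18. Corrected calls were thus 2 up and 1 down in Cx, where 7.86% and 9.45% of all genes were so called, and 3 up and 0 down in M, where 8.66% and 8.95% were. The corrected Grik5 share of Grik reads, without regard to length, was 49.6%, 38.8%, 49.2% and 36.1%. Per length it was 61.2%, 47.4%, 59.4% and 45.4%. Both kept the libraries labelled H above those labelled WT, with a narrower gap between CxH and MWT than in the uncorrected values.

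**Figure D4:**
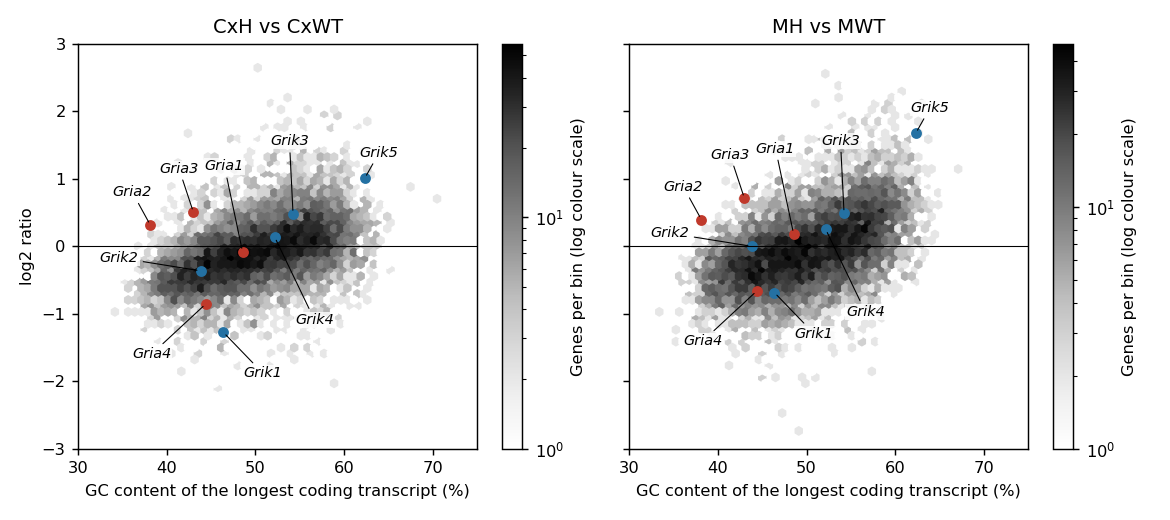
Log2 ratio against GC content of the longest coding transcript for the same 10724 genes (grey, darker where more genes fall, log colour scale), with Gria genes in red and Grik genes in blue, for CxH vs. CxWT (left) and MH vs. MWT (right). In each panel 15 genes lie beyond 3 in size and are not drawn. Grik5 sits at the GC-rich end above the bulk of genes, and Gria2 and Gria3 at the GC-poor end, also above it.

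The comparison of areas asked which genes separate Cx from M in each genotype. By measurement these pairs contrast low with high Ids in CxH vs. MH (135 and 368 RPM) and high with low in CxWT vs. MWT (354 and 155 RPM), while 0 of 14 cortical markers were called in either pair. Of 19 markers of midbrain and diencephalon, 1 was called up and 4 down in the first pair and 4 up and 0 down in the second. The ratios are given as those of the named libraries. In CxH vs. MH none of the 9 was called in either direction, where 2.43% of all genes were called up and 1.06% down (3.50% in either direction). With the same ratios, 8 of the 9 had a p-value under 0.05 in the likelihood ratio test before the threshold on size. All 4 Gria genes were lower in CxH, at -0.22 ± 0.016 for Gria1, -0.31 ± 0.016 for Gria2, -0.30 ± 0.025 for Gria3 and -0.35 ± 0.043 for Gria4. Grik1 stood at -0.52 ± 0.0996 and Grik2 at -0.43 ± 0.050, whereas Grik3 was at 0.24 ± 0.036, Grik5 at 0.23 ± 0.025 and Grik4 at 0.06 ± 0.082. After the correction Gria2 and Grik5 lay near 0, at 0.0335 and 0.0141, and again none of the 9 was called, with 1.46% of genes called up and 0.914% down. In CxWT vs. MWT, Grik5 was called up, 1.86-fold higher in CxWT (0.89 ± 0.045), where 5.43% of all genes were called up and 2.11% down (7.54% in either direction). It lost this call with the correction, at 0.22, which left no member called, against 1.93% of genes up and 1.23% down. The other members ranged from -0.23 ± 0.020 for Gria2 to 0.25 ± 0.048 for Grik3.

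The pairs that differ in both labels were also set side by side, because Ids separates the libraries in another way than the genotype labels do. In CxH vs. MWT, both low in Ids, Grik5 (1.902 ± 0.0405) and Grik3 (0.73 ± 0.044) were called up and Grik1 (-1.20 ± 0.095) and Gria4 (-1.01 ± 0.041) down, against 15.6% of genes called up and 15.1% down (30.7% in either direction). With column totals Grik3 lost its call, at 0.625. Corrected, Gria2 (0.80), Gria3 (0.87) and Grik5 (0.85) were up and Grik1 (-0.84) down, against 8.31% and 7.21%. In MH vs. CxWT, both high in Ids, Gria3 (0.80 ± 0.029) and Grik5 (0.78 ± 0.031) were called up and Grik1 (-0.75 ± 0.083) down, against 6.41% and 8.89% (15.3% in either direction). With TMM and DESeq2 factors Gria2 entered these calls, at 0.736 and 0.737, and Grik1 left them, at -0.647 and -0.646. This pair had the weakest relation to GC content of the 6 compared, with a Spearman correlation of 0.163 across genes. Corrected, Gria3 (0.85) and Gria2 (0.79, from 0.63) were up and none was down, against 6.11% and 8.63%, with Grik5 at 0.61 and Grik1 at -0.6968. Each library enters several of these comparisons, so their ratios are not independent of one another.

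Genes that work with the receptors were taken from lists written with the design. Of 14 auxiliary subunits of AMPA receptors, 4 were called up and 1 down in CxH vs. CxWT (all genes 9.46% and 11.5%) and 7 up and 1 down in MH vs. MWT (12.3% and 12.7%). Their median log2 ratios were 0.35 and 0.80, beside -0.09 and -0.07 over all genes, and 0.02 and 0.57 after the correction, which called 4 of them up with 2 down for Cx (all genes 7.86% and 9.45%), and 6 with 3 for M (8.66% and 8.95%). Among them, Gsg1l, whose product slows the recovery of AMPA receptors from desensitization, had 90.6, 32.1, 79.7 and 28.6 RPM (log2 ratios 1.496 ± 0.050 and 1.48 ± 0.057 in Cx and M). For Cacng3, which encodes a transmembrane AMPA receptor regulatory protein, the levels were 48.2, 15.6, 38.9 and 17.8 RPM (1.63 ± 0.071 and 1.13 ± 0.074). A relative of it, Cacng5, ran the other way, at 11.8, 30.3, 11.9 and 29.95 RPM (-1.36 ± 0.081 and -1.34 ± 0.084). Of the pair of kainate receptor auxiliary genes, Neto1 was called up in both areas (1.18 ± 0.068 and 1.25 ± 0.073), and Neto2 was called in neither (0.02 and -0.35).

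Genes of receptor trafficking and scaffolds were found for 14 of 17 names, and 6 were called up and 1 down in CxH vs. CxWT (all genes 9.46% and 11.5%) and 6 up and 0 down in MH vs. MWT (12.3% and 12.7%). Medians were 0.60 and 0.52, beside -0.09 and -0.07 over all genes. With the correction there were 6 up and 1 down for Cx (all genes 7.86% and 9.45%), 5 and 1 for M (8.66% and 8.95%), and medians of 0.58 and 0.40. Arc, an activity-regulated gene whose product drives the endocytosis of AMPA receptors, had 385, 52.8, 280.2 and 35.5 RPM, and its log2 ratios were 2.87 ± 0.036 and 2.98 ± 0.047. The neuronal pentraxin Nptx1, which gathers AMPA receptors at synapses, was at 258, 84.0, 232 and 73.4 RPM (1.62 ± 0.031 and 1.66 ± 0.035). The pentraxin receptor gene Nptxr was less abundant in reads, with 536, 162, 410 and 28 reads (1.53 ± 0.13 and 3.504 ± 0.28). All 3 were higher in both libraries labelled H, which follows from their choice among genes called the same way in both areas. Of the 14, 1 had a log2 ratio below 0 in Cx and 3 in M.

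Of 3 genes of the family that includes the enzyme editing the Q/R site, 2 were called down in each area, where 11.5% (Cx) and 12.7% (M) of all genes were. After the correction 2 were called down in Cx and 1 in M (all genes 9.45% and 8.95%). Adarb1, which encodes the enzyme that edits the Q/R site of Gria2, had 241, 496, 227 and 427 RPM, and its log2 ratios were -1.04 ± 0.019 and -0.91 ± 0.020, or -1.19 and -1.20 after the correction. Its brain-enriched relative Adarb2 was at 9.17, 23.1, 12.1 and 19.8 RPM (-1.33 ± 0.093 and -0.71 ± 0.091, the latter -0.66 and not called after the correction), and Adar was called in neither area (-0.23 and -0.13). Adarb1 thus had fewer reads in the libraries in which the proportion of Gria2 was larger. Of 8 measured of 9 other ionotropic glutamate receptor genes, mostly NMDA subunits, 2 rose and 3 fell past the thresholds in Cx, and 4 rose and 1 fell in M, with 2 and 2 in each after the correction. The shares over all genes are those given for the auxiliary subunits. Grin2a (1.34 ± 0.073 and 1.77 ± 0.085) and Grin2b (1.27 ± 0.059 and 1.52 ± 0.071), which encode the main glutamate-binding NMDA subunits of the adult forebrain, were up in both areas, and Grin2d, a subunit known from diencephalon and midbrain, was down (-1.55 ± 0.086 and -0.71 ± 0.10).

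**Figure D5:**
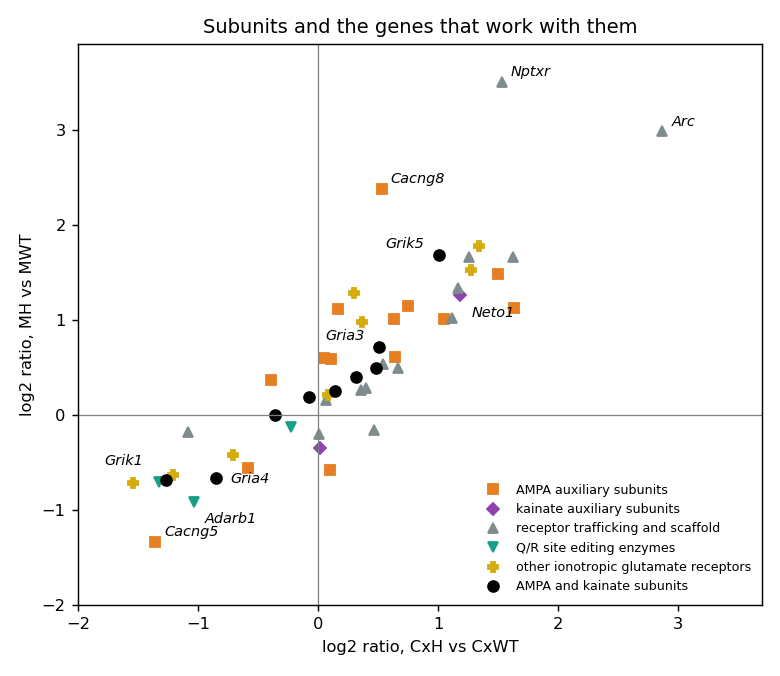
Log2 ratio in CxH vs. CxWT (horizontal) against MH vs. MWT (vertical) for the 9 AMPA and kainate subunits (black circles) and the genes of the lists of partners, 1 point per gene. Grik5 lies in the upper right at 1.01 and 1.68, short of Arc at 2.87 and 2.98, and Grik1 and Gria4 lie in the lower left near Adarb1.

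Other cell types were followed by marker lists in the same libraries. Summed levels were 652, 917, 609 and 957 RPM for 7 markers of interneurons, 1192, 466, 1015 and 445 for 8 of striatal neurons, 139, 119, 144 and 86.2 for 6 of hippocampus, and 2669, 2551, 2724 and 2648 for 6 pan-neuronal genes. The striatal sum was thus higher in both libraries labelled H. The lower interneuron sum there came with lower Gad1 (274, 404, 282 and 460.1 RPM) and Gad2 (117, 274, 126 and 302 RPM), general GABAergic genes. Pvalb (29.8, 38.5, 22.2 and 50.7 RPM) and Slc32a1 (102.9, 138.8, 71.9 and 96.2 RPM) were also lower in each library labelled H than in its partner labelled WT. Sst, Vip and Lhx6 were higher in both libraries labelled H. Single interneuron markers thus went both ways, with calls up for 3 of 7 and down for 1 in Cx (all genes 9.46% and 11.5%), and up for 2 and down for 3 in M (12.3% and 12.7%). With the GC correction 1 was called up and 2 down in Cx (all genes 7.86% and 9.45%), and 2 up and 3 down in M (8.66% and 8.95%). Glial sums were 192, 232, 170.4 and 184 RPM for 4 markers of oligodendrocyte precursors, 4526, 8667, 4694 and 6891 for 5 of oligodendrocytes, 2939, 1968, 2435 and 2525 for 6 of astrocytes and 241, 153, 195 and 195 for 6 of microglia. The oligodendrocyte sum was lower in both libraries labelled H, as were Gria4 and Grik1, and 5 of its 5 markers were called down in Cx and 3 in M, against the same 11.5% and 12.7% of all genes. Within the level pan-neuronal sum, Rbfox3 was called up in both areas (225, 83.8, 162 and 53.2 RPM) and Stmn2 had log2 ratios of -0.47 and -0.54. In Cx, 2 astrocyte markers were called up and 1 down, and 3 microglia markers were called up. In M, 2 of each were called down, Aqp4 and Gfap, and Tyrobp and Aif1. The uncorrected shares of all genes given above apply to these counts. Markers named singly in this paragraph were chosen after their values were seen. No marker outside the midbrain list was at 0 in any library.

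For each subunit, the genes with the most similar profile were sought by the Euclidean distance between log2 RPM values centred on each gene's mean, over 4 libraries and among 11010 genes, with or without a matched transcript, whose reads reached 100 in all of them. Grik5 was closest to Cpne5 (distance 0.076), Git1 (0.079) and Pou3f1 (0.11), which had 110, 52.2, 94.7 and 30.2 RPM, 426, 223, 359 and 118 RPM, and 19.2, 9.76, 16.03 and 5.56 RPM. Grik1 was nearest to Trpm3 (0.061), Anln (0.068) and Nap1l3 (0.079), and Gria4 to Washc4 (0.016), Uba3 (0.037) and Rsbn1 (0.048). For Gria3 they were Ppp1r12a (0.047), Epha7 (0.063) and Cttnbp2 (0.067), and for Gria2 Tmsb4x (0.024), Calm2 (0.050) and Icosl (0.058). Gria1, with its nearly level profile, was nearest to Focad (0.013), Tnik (0.018) and Rbsn (0.019). Grik2 lay by Dennd4a (0.026), Mbtd1 (0.026) and Prkdc (0.027), Grik3 by Gnao1 (0.039), Sirt7 (0.041) and Cadm3 (0.043), and Grik4 by Kdm3b (0.029), Ykt6 (0.034) and Dhx8 (0.036). Among the members themselves the closest were Gria1 and Grik4 (0.26), followed by Gria2 and Gria3 (0.27). With 4 libraries many genes can share a profile, and the distances are a description.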

How the data were processed

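RNA pooled over 7 mice per condition was sequenced on a SOLiD instrument. The authors aligned reads that had passed quality control to NCBI37/mm9 with PASS 2.10 (best hit, at most 2 mismatches, no gap), and deposited raw counts of reads aligned to a single gene, keeping genes with reads over more than 50% of their length. The gene annotation they counted on is not given in the sources used here. Columns were matched to samples by name. Counts were scaled by the aligned reads stated by the study, a count of 0 was set to 1 for ratios, and a likelihood ratio test on Poisson counts was run on all 12700 genes, of which 12251 matched a GENCODE vM1 gene with a protein-coding transcript through RefSeq symbols. No filter on low counts was used. With 1 library per condition the pairwise tests compare libraries, not conditions, and an additive edgeR quasi-likelihood fit of both labels, with 1 residual degree of freedom, was added after the data were seen. Intervals, standard errors and the floor of 3 reads cover counting error only.

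GC content and length were corrected per library by cubic splines fitted on genes whose reads reached 100 in all libraries. Pairwise calls after the correction used the corrected ratio with the p-value of the uncorrected counts, so the corrected ratio itself was not tested. Alternatives were column totals, TMM factors, DESeq2 size factors, p-values adjusted by Benjamini-Hochberg, a log2 threshold of 1, a minimum of 100 reads, 0.5 added to each count, and edgeR's exact test, for which a biological coefficient of variation of 0.1 or 0.2 had to be assumed. Shares per length of all exons, and per transcript length with the correction, were added after the data were seen. The steps were tested on simulated data.

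The named genes are all 9 members, Ids, the 3 nearest profiles of each member, and up to 3 genes per list of partners with the largest mean size of ratio among those called the same way in both areas. En1 is among the genes that the same rule gave for the midbrain list. Neto2 and Adar, the remaining genes of their lists, and Cacng8, marked in the plot of partners, were added after their values were seen. So were the markers named singly with the other cell types. Members and lists were chosen with earlier results of these data known. Tools were DESeq2 1.42.0 and edgeR 4.0.16 under R 4.3.3, and Python 3.11.15 with scipy 1.17.1, pandas 2.3.3, numpy 2.4.6 and matplotlib 3.10.9.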

Additional observations from a re-analysis of the deposited data

Results flagged for a closer look

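Several subunit genes had ratios of opposite sign under the same contrast. For H over WT, the log2 ratio of Gria1 was -0.0794 in Cx and 0.1858 in M, and that of Grik2 was -0.3623 and 0.0015. For Cx over M, the log2 ratio of Gria1 was -0.2202 among the libraries labelled H and 0.0451 among those labelled WT, and that of Grik1 was -0.519 and 0.0701. The values of 0.0015 (counting error 0.050) and 0.0701 (0.078) lie within counting error of 0, and with TMM factors Gria1 was at 0.0139 in CxH vs. CxWT and -0.0039 in CxWT vs. MWT, so that its signs no longer differed. Each sign rests on 1 library per condition, and the differences were not tested. In M the sign follows labels that the Ids reads contradict.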

How the results depend on the processing

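With 1 library per condition, no replicate could be left out. No pairing by replicate number could be made because each group holds 1 library. The additive fit, with the area label as its second term, stands in the report. Of 540 pairwise member ratios under alternatives, 491 kept their direction and side of the thresholds, 23 lost a call, 10 gained one and 16 changed sign. The number of members called fell from 2 to 1 in MH vs. MWT with a log2 threshold of 1 or an assumed coefficient of variation of 0.2, and from 3 to 0 in MH vs. CxWT with either. In CxWT vs. MWT it fell from 1 to 0 with a log2 threshold of 1 or the GC and length correction. Over all genes, a log2 threshold of 1 took the calls from 2658 to 1401 in CxH vs. CxWT, 3170 to 1642 in MH vs. MWT, 444 to 143 in CxH vs. MH, 958 to 295 in CxWT vs. MWT, 3895 to 1961 in CxH vs. MWT and 1943 to 1064 in MH vs. CxWT. The correction left 291, 388 and 1901 in CxH vs. MH, CxWT vs. MWT and CxH vs. MWT. In the first and second of these, a coefficient of variation of 0.2 left 191 and 487, and a minimum of 100 reads left 201 and 628. Signs turned for small ratios. With TMM factors and DESeq2 size factors, Gria1 was at 0.0139 and 0.0077 in CxH vs. CxWT, -0.0039 and -0.0038 in CxWT vs. MWT, and 0.01 and 0.0039 in CxH vs. MWT. With column totals, Grik2 was at -0.0596 in MH vs. MWT, Gria1 at -0.0462 and Grik1 at -0.0212 in CxWT vs. MWT, and Gria2 at -0.0241 in CxH vs. MWT. With the correction, Gria2 was at 0.0335 in CxH vs. MH, Gria3 at 0.0892, Grik2 at 0.1119 and Grik3 at -0.0438 in CxWT vs. MWT, Gria1 at 0.0383 in CxH vs. MWT, and Grik4 at -0.008 in MH vs. CxWT. In the additive fit, the members called for H over WT were 4, 5 with TMM factors, which added Grik3, and 5 with the correction, which added Gria2. There the correction turned Grik2 to 0.0566 for H over WT, and Gria2 to 0.0072 and Gria3 to 0.0085 for Cx over M. TMM factors moved every ratio of MH vs. CxWT by 0.11. In CxH, CxWT, MH and MWT, the Gria2 share of reads was 39.8%, 34.1%, 40.8% and 37.6%, and 44.5%, 32.5%, 41.8% and 33.7% with the correction. Per transcript length it was 34.1%, 28.9%, 35.0% and 32.1%, and 38.4%, 27.4%, 35.9% and 28.6% with the correction. Per length of all exons it was 39.1%, 32.7%, 40.2% and 36.3%. The Grik5 share of reads was 56.0%, 39.2%, 51.7% and 27.2%, and 49.6%, 38.8%, 49.2% and 36.1% with the correction. Per transcript length it was 68.0%, 47.8%, 62.2% and 34.1%, and 61.2%, 47.4%, 59.4% and 45.4% with the correction. Per length of all exons it was 71.6%, 53.1%, 67.1% and 39.5%. Causes were not tested. Counting limits Grik1 and Grik4, with 361 and 390 reads at the lowest.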
